A study of Mus musculus with 9 samples.

Results

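A set of 10 genes that hold Wnt signaling back at the cell surface were followed through tumorspheres, mammospheres induced to differentiate and mammospheres. The genes were Sfrp1, Sfrp2, Sfrp4, Frzb, Dkk1, Dkk2, Dkk3, Wif1, Sostdc1 and Kremen1, taken by name from the known antagonists of the pathway, and every probe set annotated to exactly 1 gene symbol equal to one of these names was used. The 10 genes, of 12393 genes on the array, were measured by 16 probe sets, with 4 for Sfrp1, 2 each for Frzb, Dkk3 and Sostdc1 and 1 for each of the others. All but Kremen1 encode secreted proteins, whereas Kremen1 encodes a transmembrane receptor that acts together with the secreted Dkk proteins.

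Total RNA of 3 independent cell populations per group was hybridized to MOE430A Gene Chips, 9 arrays in all. By the paper, each tumorsphere culture came from a different tumor, and the other groups were separate preparations. Tumorspheres were non-adherent spheres grown in stem cell medium from the bulk cells of mammary tumors of MMTV-Neu mice, a model in which a mammary tumor virus promoter drives the Neu oncogene in mammary epithelium, and were harvested at passages 3 to 5. Mammospheres were grown in the same way from the bulk mammary epithelial cells of young virgin female FVB/N mice. For differentiation, mammospheres were dispersed and the cells were plated on collagen in medium with serum for 7 days, so that these cultures differed from mammospheres in serum, attachment and time at once. Replicates are numbered here in the order in which the arrays were listed, and equal numbers in different groups do not pair cultures. The tumorsphere arrays carry numbers 1099 to 1101 and the other arrays 858 to 863, so that the tumor origin and the run of arrays cannot be told apart.

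Wnt ligands bind Frizzled receptors together with the co-receptors LRP5 and LRP6, which stabilizes β-catenin and allows it to act with TCF/LEF factors at target genes. Sfrp1, Sfrp2, Sfrp4 and Frzb, the last also called Sfrp3, carry a cysteine-rich domain like that of Frizzled and bind Wnt ligands outside the cell, as Wif1 does through a different domain. Dkk1 and Dkk2 bind the co-receptors instead, with Kremen proteins as partners, while Dkk3 is a divergent member of the family whose effect on Wnt signaling depends on the setting. Sostdc1 binds the co-receptors and also antagonizes BMP ligands. In the mammary gland several of these antagonists are made by the stroma and by basal cells.

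Promoter sequences were at hand for 5 of the 10 genes, Sfrp2, Frzb, Dkk1, Dkk2 and Wif1. Among these, Sfrp2 and Dkk2 rose with induced differentiation and Frzb fell, and their promoters are shown. Each stretch is the 250 bases before the start site given for that promoter in GRCm38.p6. The stretches lie at chr3:83766071-83766320 (plus strand) for Sfrp2, chr3:132085042-132085291 (plus strand) for Dkk2 and chr2:80447397-80447646 (minus strand) for Frzb. The RefSeq gene begins at 83765750 for Sfrp2 and at 132085266 for Dkk2, before the start site used here. The printed stretch of Sfrp2 thus lies within the annotated gene and that of Dkk2 partly so, while that of Frzb adjoins its gene. Capitals mark matches on either strand to TATAAA for the core promoter box, CTTTGAT for TCF/LEF factors, TGANTCA for the AP-1 complex or CAGACA for SMAD factors.
Sfrp2: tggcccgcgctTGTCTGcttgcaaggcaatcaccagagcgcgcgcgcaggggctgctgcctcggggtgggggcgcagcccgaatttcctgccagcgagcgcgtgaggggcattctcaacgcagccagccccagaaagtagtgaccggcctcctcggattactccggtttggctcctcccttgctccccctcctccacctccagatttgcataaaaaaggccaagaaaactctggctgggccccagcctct
Dkk2: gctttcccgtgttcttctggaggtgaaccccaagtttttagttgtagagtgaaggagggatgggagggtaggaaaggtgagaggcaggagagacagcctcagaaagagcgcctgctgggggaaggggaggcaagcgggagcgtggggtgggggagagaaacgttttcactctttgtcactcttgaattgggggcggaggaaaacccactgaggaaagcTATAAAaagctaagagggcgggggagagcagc
Frzb: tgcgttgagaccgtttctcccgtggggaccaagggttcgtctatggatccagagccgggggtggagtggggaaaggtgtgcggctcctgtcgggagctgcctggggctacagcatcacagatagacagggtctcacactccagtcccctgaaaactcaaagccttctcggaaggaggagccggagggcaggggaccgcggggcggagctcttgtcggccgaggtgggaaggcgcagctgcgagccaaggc
Within the full window of 300 bases, 50 of them after the start, CTTTGAT and TGANTCA were found in none of the 5 promoters, against 3.73% and 7.81% of all 32851 promoters in the table. Dkk2 has a TATAAA 32 bases before the start and Dkk1 one at 54 bases, a motif held by 13.6% of all promoters, and Wif1 has one at 232 bases. Sfrp2 has 1 match to CAGACA, 239 bases before the start on the opposite strand, as have 21% of all promoters at any position. All 5 hold more CpG than the median promoter, with 22 CpG in Sfrp2, 20 in Frzb, 11 in Dkk2, 9 in Dkk1 and 25 in Wif1, where that median is 7. The promoters of Sfrp2, which rose, and of Frzb, which fell, are alike in CpG number, and neither has a TATAAA. A match or its absence describes these letters alone.

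The authors' intensities were on a linear scale and already scaled between arrays, with array medians of 84 to 88.6. All values below are log2(intensity + 8.67) after quantile normalization, on which the median over all probe sets is 6.57, and a difference on this scale understates the change of dim probe sets. Groups were compared in 1 limma fit over 22626 probe sets, and an adjusted p under 0.05 is called a change. The markers of the labelled cell types give the setting. Krt18, a luminal keratin, averaged 10.20 ± 0.44 (SD, n = 3 in each group) in tumorspheres, 5.49 ± 0.188 in the differentiated cells and 5.93 ± 0.345 in mammospheres, and Epcam, an epithelial adhesion gene, 9.86 ± 0.197, 6.07 ± 0.187 and 6.31 ± 0.182 in the same cultures. Krt14, a basal keratin, averaged 6.81 ± 1.12, 5.58 ± 0.0429 and 5.58 ± 0.0269. By contrast Col1a1 averaged 11.94, 13.08 and 12.18 and Vim 12.58, 12.04 and 12.62, each with a mean above that of 99.9% of the probe sets. Krt18, Krt14 and Epcam were thus below the median probe set in the differentiated cells and in mammospheres, while Col1a1 and Vim were among the brightest in all 3 cultures. Other keratins lay on both sides of that median. Krt8, a luminal keratin, averaged 10.55 in tumorspheres, 7.26 in the differentiated cells and 7.30 in mammospheres, and Krt5, a basal keratin, 6.64, 6.92 and 6.73. Krt19, also luminal, averaged 5.85, 6.17 and 5.78 and Krt17, also basal, 5.34, 5.45 and 5.41, below the median in each culture. In bulk RNA, fewer cells of a type and less RNA per cell cannot be told apart.

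Induced differentiation moved 6 of the 10 genes. Sfrp1, Sfrp2, Sfrp4, Dkk2 and Dkk3 exceeded their mammosphere level after differentiation and Frzb fell below it, taking for each gene its brightest probe set. Of all 12393 genes, 34.1% were called in this comparison, 18% higher and 16.1% lower. The median absolute difference was 0.60 over the 10 genes and 0.16 over all genes, and 3 of the 10 differed by more than 1 on the log2 scale, as 3.78% of all genes did. The 3 were Sfrp1, Sfrp2 and Dkk2, which the paper had already reported from these arrays as highest in the differentiated cells. As the members were chosen with earlier results known, the contrast with all genes is not independent of that choice. Compared with the differentiated cells, tumorspheres were lower for Sfrp1, Sfrp2, Dkk2 and Dkk3 and higher for Frzb and Kremen1, where 24.9% of all genes were called, 12.7% lower and 12.3% higher. Between tumorspheres and mammospheres only Dkk3 and Kremen1 of the 10 were called, both higher in tumorspheres, where 13.3% of all genes were called, 6.21% higher and 7.11% lower. The 3 comparisons share their groups, so that their counts are not independent of each other.

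**Figure D1:**
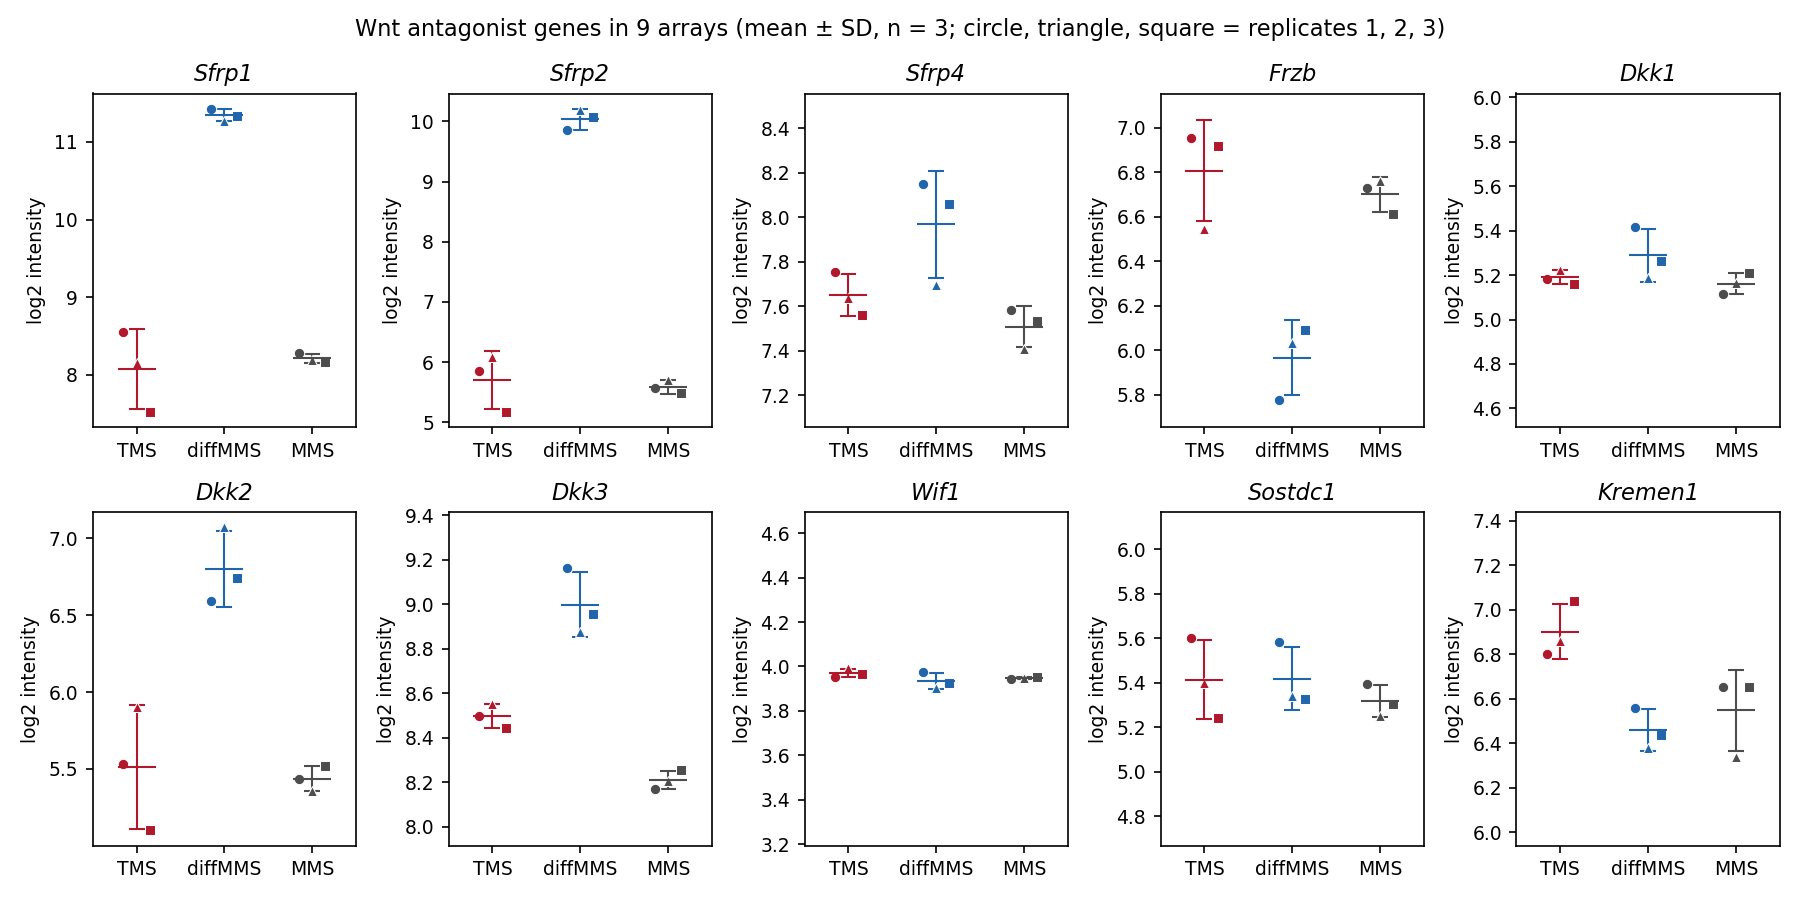
Log2 intensity of the 10 genes in each of the 9 arrays, 1 panel per gene for its brightest probe set, in tumorspheres (TMS), mammospheres induced to differentiate (diffMMS) and mammospheres (MMS). Points are arrays and bars the group mean and SD (n = 3), each panel spans at least 1.5 units, and the differentiated cells stand above all other arrays for Sfrp1, Sfrp2, Dkk2 and Dkk3 and below them for Frzb.

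Sfrp2 showed the largest difference among the 10 genes. Its log2 intensity was 5.84, 6.09 and 5.17 in the tumorspheres, 9.85, 10.19 and 10.06 in the differentiated cells and 5.57, 5.71 and 5.48 in the mammospheres. All arrays of the differentiated cells lay more than 3 units above every other array, and the tumorspheres overlapped with the mammospheres on both sides. The differentiated cells exceeded mammospheres by 4.45 (standard error 0.186, adjusted p = 1.02e-08 from limma), or 21.9-fold, and tumorspheres differed from the differentiated cells by -4.33 (adjusted p = 1.24e-08). Tumorspheres differed from mammospheres by 0.12, with a 95% interval from -0.29 to 0.52.

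Sfrp1 was likewise highest in the differentiated cells. On its brightest probe set its log2 intensity was 8.56, 8.15 and 7.52 in the tumorspheres, 11.43, 11.27 and 11.34 in the differentiated cells and 8.28, 8.19 and 8.17 in the mammospheres. The differentiated cells and the mammospheres were each tight, with SDs of 0.0776 and 0.0579 (n = 3), and the tumorspheres were spread over more than 1 unit, with an SD of 0.52. The difference of the differentiated cells from mammospheres was 3.13 (standard error 0.188, adjusted p = 2e-07 from limma), and that of tumorspheres from the differentiated cells -3.27.
The 4 probe sets of Sfrp1 agreed in direction but not in size. Differentiated cells exceeded mammospheres by 3.59 with the second probe set, by 3.45 with the third and by 0.89 with the fourth, each past the test. Of the 4, 3 were designed on the same sequence record, and the fourth is of a class whose probes may also match other transcripts, so that they are not independent measurements. Between tumorspheres and mammospheres the probe sets gave -0.14, -0.21, -0.88 and -0.02, the largest with the third, and none passed the test (adjusted p = 0.103 from limma for that probe set). The third probe set read 7.04, 5.83 and 5.72 in the tumorspheres and 7.36, 7.38 and 6.48 in the mammospheres, with both groups overlapping. Without tumorsphere replicate 1 it gave -1.30 (adjusted p = 0.0072) and the second gave -0.56 (adjusted p = 0.0221), while without tumorsphere replicate 3 the brightest probe set gave 0.14 (adjusted p = 0.425).

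Sfrp4 moved far less. It read 7.75, 7.64 and 7.56 in the tumorspheres, 8.15, 7.70 and 8.06 in the differentiated cells and 7.58, 7.41 and 7.53 in the mammospheres. Replicate 2 of the differentiated cells lay within the range of the tumorspheres, and all 3 lay above the mammospheres. The differentiated cells exceeded mammospheres by 0.46 (standard error 0.112, adjusted p = 0.00802 from limma), or 1.38-fold. Tumorspheres differed from the differentiated cells by -0.32 (adjusted p = 0.0603) and from mammospheres by 0.14 (95% interval -0.10 to 0.39). The call against the differentiated cells was gained without their replicate 2 (-0.45, adjusted p = 0.00646) or without tumorsphere replicate 1 (-0.37, adjusted p = 0.0491), and with dim probe sets left out (adjusted p = 0.0461).

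Frzb ran opposite to the other genes of its family. Its log2 intensity was 6.95, 6.545 and 6.92 in the tumorspheres, 5.77, 6.03 and 6.09 in the differentiated cells and 6.73, 6.76 and 6.61 in the mammospheres. The differentiated cells lay below all 6 other arrays, and tumorsphere replicate 2 lay below every mammosphere array while the other 2 lay above. The difference of the differentiated cells from mammospheres was -0.73 (standard error 0.117, adjusted p = 0.000546 from limma), and tumorspheres exceeded the differentiated cells by 0.84 (adjusted p = 0.000245). A second probe set, designed on the same sequence record, gave -0.59 (adjusted p = 0.00825) and 0.78 (adjusted p = 0.00204), although its mean was above that of only 23.2% of all probe sets. Tumorspheres differed from mammospheres by 0.11 (95% interval -0.15 to 0.36) with the first probe set and by 0.19 with the second.

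**Figure D2:**
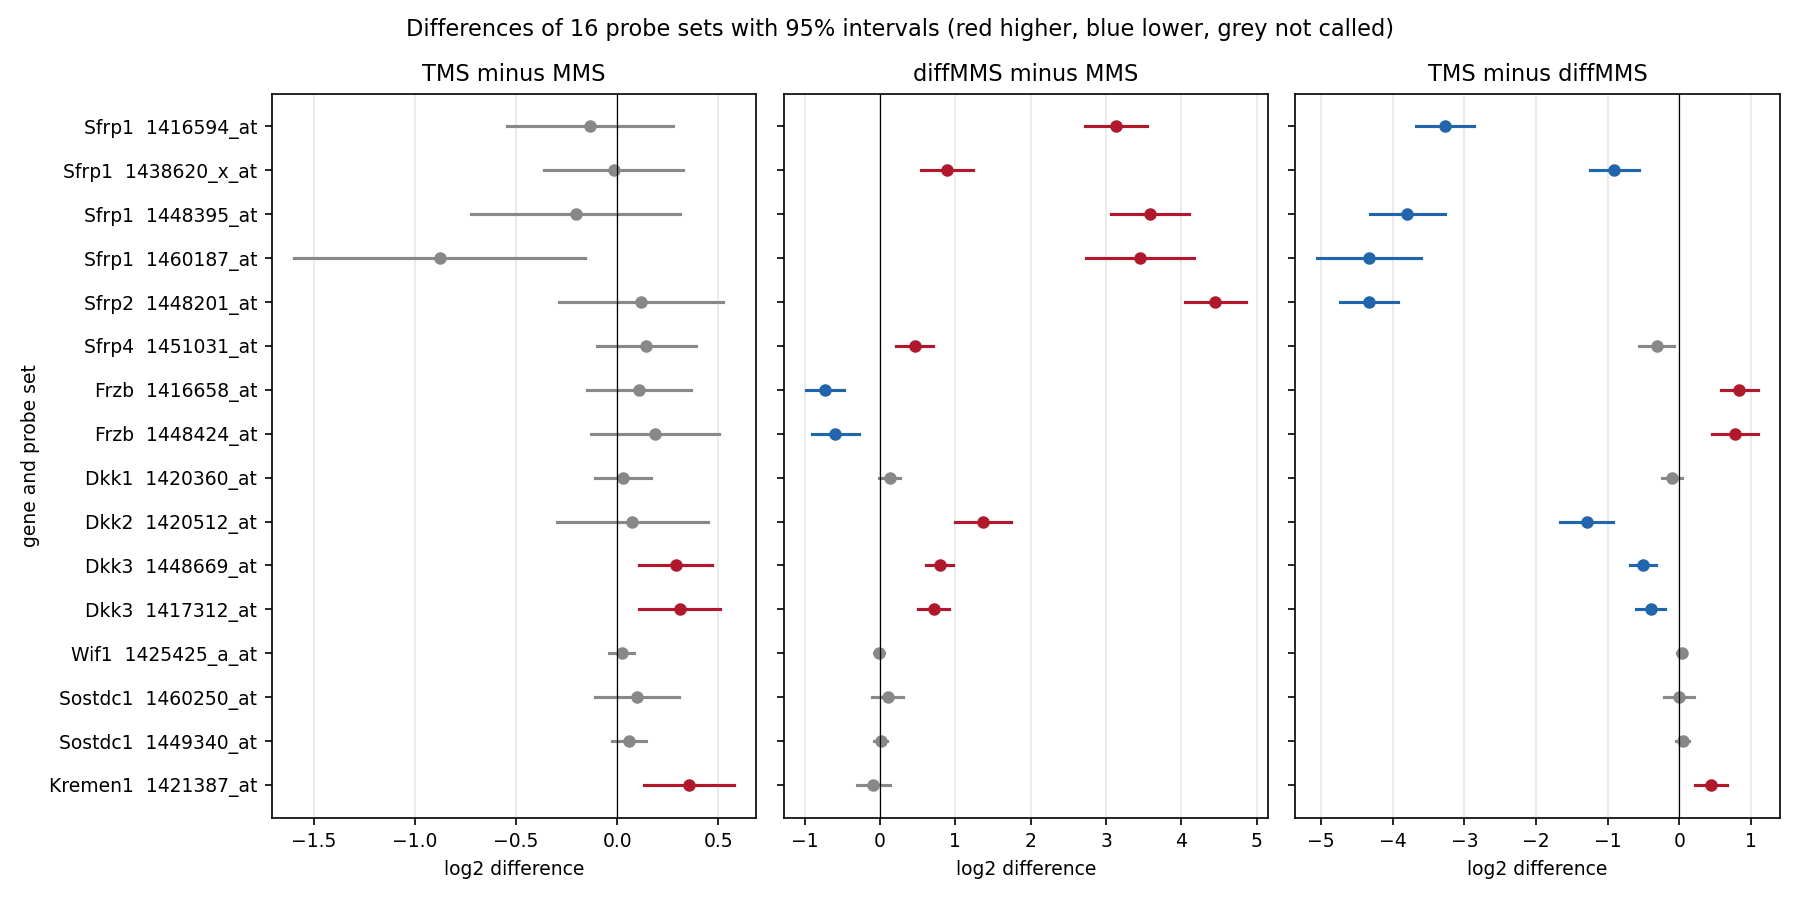
Log2 difference of each of the 16 probe sets (points) with its 95% interval from limma (lines) in the 3 comparisons, each with its own horizontal scale, in red where called higher, blue where called lower and grey where not called. The 4 Sfrp1 probe sets lie on the same side in the comparisons with the differentiated cells, at 0.89 to 3.59 above mammospheres, and the 2 Frzb probe sets lie on the opposite side.

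Of the Dkk genes, Dkk2 and Dkk3 rose with induced differentiation. Dkk2 read 5.53, 5.90 and 5.10 in the tumorspheres, 6.59, 7.07 and 6.75 in the differentiated cells and 5.44, 5.36 and 5.52 in the mammospheres. The differentiated cells were above all other arrays, and the tumorspheres lay around the mammospheres with an SD of 0.402 against 0.0817 (n = 3 each). The differentiated cells exceeded mammospheres by 1.36 (standard error 0.171, adjusted p = 8.82e-05 from limma), or 2.58-fold, and tumorspheres differed from the differentiated cells by -1.29 (adjusted p = 0.000169). Tumorspheres differed from mammospheres by 0.07 (95% interval -0.30 to 0.45).
Dkk3 was the only 1 of the 10 genes with all 3 groups apart. Over all probe sets, 33.3% were apart between tumorspheres and mammospheres. The differentiated cells were apart from mammospheres in 51.6% and from tumorspheres in 37.5%. The share of all probe sets with all 3 groups apart was not computed. Dkk3 read 8.50, 8.55 and 8.44 in the tumorspheres, 9.16, 8.88 and 8.96 in the differentiated cells and 8.17, 8.21 and 8.25 in the mammospheres. Tumorspheres stood between the other cultures, and no arrays of different groups overlapped, which also held for its second probe set. The differentiated cells exceeded mammospheres by 0.79 (standard error 0.0832, adjusted p = 2.18e-05 from limma) and tumorspheres differed from the differentiated cells by -0.50 (adjusted p = 0.000933). Tumorspheres exceeded mammospheres by 0.29 (adjusted p = 0.0384), or 1.22-fold, and by 0.31 with the second probe set (adjusted p = 0.044). The call between tumorspheres and mammospheres was lost for the first probe set without tumorsphere replicate 1 or 2, without any of the 3 mammosphere arrays and without replicate 3 of the differentiated cells, with differences of 0.26 to 0.31 and adjusted p values of 0.0566 to 0.126, with the values as deposited (0.21, adjusted p = 0.0903) and with each array centred on its median (0.17, adjusted p = 0.204). The second probe set lost it in the same 2 settings (adjusted p = 0.0905 and 0.183) and with only these 2 groups in the fit (adjusted p = 0.0578). It also lost it without tumorsphere replicate 2 or 3, any of the 3 mammosphere arrays or replicate 2 of the differentiated cells, with differences of 0.23 to 0.35 and adjusted p values of 0.0612 to 0.186. With median centring its difference of tumorspheres from the differentiated cells was no longer called (-0.31, adjusted p = 0.0548).
Dkk1 was dim and was not called in any comparison. Its log2 intensity was 5.18, 5.22 and 5.16 in the tumorspheres, 5.42, 5.19 and 5.26 in the differentiated cells and 5.11, 5.16 and 5.21 in the mammospheres. Its mean was above that of only 18.1% of all probe sets, and the groups overlapped in each comparison. The differentiated cells differed from mammospheres by 0.13 (95% interval -0.01 to 0.27, adjusted p = 0.146 from limma), which became 0.21 (adjusted p = 0.041) with the values as deposited, and tumorspheres from mammospheres by 0.03 (95% interval -0.11 to 0.17).

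Wif1 and Sostdc1 were not called in any comparison. Wif1 read 3.90 to 3.99 over all 9 arrays, from deposited intensities of 6.25 to 7.34, where the lowest intensity of any probe set was 5.77, so that a change in its transcript could not be told from no change at this signal. Sostdc1 read 5.60, 5.40 and 5.24 in the tumorspheres, 5.58, 5.34 and 5.33 in the differentiated cells and 5.39, 5.25 and 5.30 in the mammospheres with the brighter of its probe sets. The groups overlapped, and its 3 differences were 0.10 between tumorspheres and mammospheres (95% interval -0.11 to 0.30), 0.10 between differentiated cells and mammospheres (-0.10 to 0.31) and 0.00 between tumorspheres and differentiated cells (-0.21 to 0.20). Its second probe set lay between 4.44 and 4.56 in all arrays. The means of its probe sets were above those of only 20.9% and 6.97% of all probe sets. A difference on this scale understates the change at such dim signals.

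Kremen1, the receptor that works with Dkk1 and Dkk2, was the only 1 of the 10 genes whose tumorsphere level was called above that of each other culture. It read 6.80, 6.86 and 7.04 in the tumorspheres, 6.56, 6.38 and 6.44 in the differentiated cells and 6.65, 6.34 and 6.65 in the mammospheres. Every tumorsphere array lay above the other 6, and the differentiated cells overlapped with the mammospheres. Tumorspheres exceeded the differentiated cells by 0.44 (standard error 0.102, adjusted p = 0.00781 from limma), or 1.36-fold, and mammospheres by 0.35 (adjusted p = 0.0382), or 1.28-fold. The second of these calls was lost without tumorsphere replicate 2 or 3, mammosphere replicate 2 or 3 or replicate 2 or 3 of the differentiated cells, with differences of 0.25 to 0.40 and adjusted p values of 0.0501 to 0.165, and with only these 2 groups in the fit (adjusted p = 0.0625). The differentiated cells differed from mammospheres by -0.09 (95% interval -0.31 to 0.13).

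Counted by probe sets, differentiated cells exceeded mammospheres in 9 of the 16 and fell below them in 2, where 33.1% of all probe sets were called, 16.2% higher and 16.9% lower. The groups did not overlap in 11 of the 16, against 51.6% of all. Tumorspheres were lower than the differentiated cells in 8 and higher in 3, where 23.7% of all were called, 11.5% lower and 12.2% higher, and these groups did not overlap in 11 of the 16, against 37.5% of all. In each of these comparisons the called probe sets came from 6 genes. They held all 4 of Sfrp1 and the 2 each of Dkk3 and Frzb, which are not independent measurements. Tumorspheres were higher than mammospheres in 3 and lower in none, where 14.3% of all were called, 6.5% higher and 7.77% lower. In the last comparison the 3 called probe sets, those of Dkk3 and Kremen1, were also the only ones of the 16 whose groups did not overlap, against 33.3% of all probe sets. Without tumorsphere replicate 2 or mammosphere replicate 2 or 3, none of the 16 was called there, and 1 was called without mammosphere replicate 1 or without replicate 2 or 3 of the differentiated cells.

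Among tumorspheres the SD was largest for Sfrp1, Sfrp2 and Dkk2, at 0.52, 0.476 and 0.402 (n = 3). Tumorsphere replicate 3 had the lowest value of its group for 7 of the 10 genes, among them Sfrp1, Sfrp2, Sfrp4 and Dkk2, and the highest value for 1, Kremen1. This count takes the brightest probe set of each gene after quantile normalization, and the same count over all genes was not made. Dkk3 is among the 7, but in its deposited intensities of 332.8, 360.1 and 358.1 replicate 1 was the lowest. Dkk1 and Sostdc1, also among the 7, were dim, with means above those of only 18.1% and 20.9% of all probe sets. On the second probe set of Dkk3 replicate 3 was the highest, at 8.28 against 8.11 and 8.20, as it was on that of Frzb. On the other probe sets of Sfrp1 and Sostdc1 it was the lowest. Over the 10 genes the median within-group SD was 0.152 in tumorspheres, 0.145 in the differentiated cells and 0.0755 in mammospheres, against medians of 0.0936, 0.0879 and 0.0656 over all probe sets. The tumorsphere cultures came from different tumors, and the part of this in their spread was not tested. The summed intensity of 10 luminal markers was also highest in tumorsphere replicate 3, at 7490, against 5060 in replicate 1 and 4850 in replicate 2, while that of 12 fibroblast markers was lowest there, at 38700 against 45100 and 41200. The part of these markers in the spread of the antagonists was not tested. Without this replicate, Sfrp2 was 0.38 higher in tumorspheres than in mammospheres (adjusted p = 0.04 from limma).

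Cell type markers were compared in the same way, where 18% of all genes were called higher and 16.1% lower in the differentiated cells against mammospheres. Of 8 basal and myoepithelial markers, 4 rose with differentiation and none fell. The 4 were Acta2, a smooth muscle actin, by 2.60, Cnn1, a smooth muscle calponin, by 0.83, Trp63, a basal transcription factor, by 0.32 and Myh11, a smooth muscle myosin, by 0.19. Krt5 and Krt14 did not pass, with 0.19 and -0.01. The summed intensity of the 8 was 825 to 930 in tumorspheres, 2670 to 3520 in the differentiated cells and 771 to 860 in mammospheres. Most of the rise of this sum came from Acta2, with a mean of 11.36 in the differentiated cells and 8.76 in mammospheres, and the other 7 markers differed by 0.83 or less. Of 12 fibroblast markers, 4 were higher after differentiation and 4 were lower, and their sum was 38700 to 45100 in tumorspheres, 46700 to 47500 in the differentiated cells and 44000 to 46100 in mammospheres. Thy1, a surface glycoprotein of fibroblasts, was higher by 1.42 and Pdgfra, a growth factor receptor, by 1.04, whereas Lum, a matrix proteoglycan, gave -1.82 and Fap, a protease of activated fibroblasts, -1.04. Of 10 luminal markers 2 were higher after differentiation and none was lower, and their sum was 4850 to 7490 in tumorspheres, 798 to 1020 in the differentiated cells and 761 to 855 in mammospheres.
The other lists were smaller. Of 3 adipocyte markers only Lpl rose with differentiation, by 2.51, with Adipoq and Fabp4 at 0.01 and -0.10, and the sum was 450 to 506 in tumorspheres, 4070 to 4670 in the differentiated cells and 694 to 895 in mammospheres. Of 5 endothelial markers none was higher and 1 was lower, with sums of 271 to 331 in tumorspheres, 349 to 399 in the differentiated cells and 345 to 395 in mammospheres. Of 6 macrophage markers 2 were higher and 1 was lower, with sums of 1170 to 1990 in tumorspheres, 603 to 972 in the differentiated cells and 527 to 579 in mammospheres. Lyz2, the brightest of them in tumorspheres, averaged 9.63 there, 8.14 in the differentiated cells and 7.34 in mammospheres. Adgre1 and Ptprc, with means above those of only 25% and 13.4% of all probe sets, were not called in any comparison. The part of any of these cell types in the levels of Sfrp1, Sfrp2, Dkk2, Dkk3, Sfrp4 and Frzb was not tested.

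Other genes shared the course of Sfrp1, Sfrp2 and Dkk2, the 3 members whose group means spanned more than 1 unit. Likeness was taken as the root mean square difference between log2 profiles over the 9 arrays, each centred on its own mean, among 12383 genes. Closest to Sfrp1 were Adamts5, a matrix protease, at 0.306, Myl9, a regulatory myosin light chain of smooth muscle, at 0.309 and Ogn, a small matrix proteoglycan, at 0.320. Closest to Sfrp2 were Abi3bp, an extracellular matrix protein, at 0.267, Ptx3, a secreted pentraxin, at 0.278 and Reg1, a secreted lectin-like protein, at 0.300. Closest to Dkk2 were Gpc4, a cell surface heparan sulfate proteoglycan, at 0.140, the interleukin receptor Il1r1 at 0.177 and the matrix metalloproteinase Mmp23 at 0.188. Sfrp1 and Sfrp2 lay 0.605 apart by the same measure. The profiles are alike mainly in the step between the differentiated cells and the other cultures. Gpc4 and Mmp23 also shared with Dkk2 the order of the 3 tumorsphere arrays. Adamts5 and Myl9 likewise had the order of Sfrp1, and Reg1 that of Sfrp2. Il1r1, Ogn, Abi3bp and Ptx3 did not have the order of the member they were closest to. All were picked for likeness over these same arrays.

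**Figure D3:**
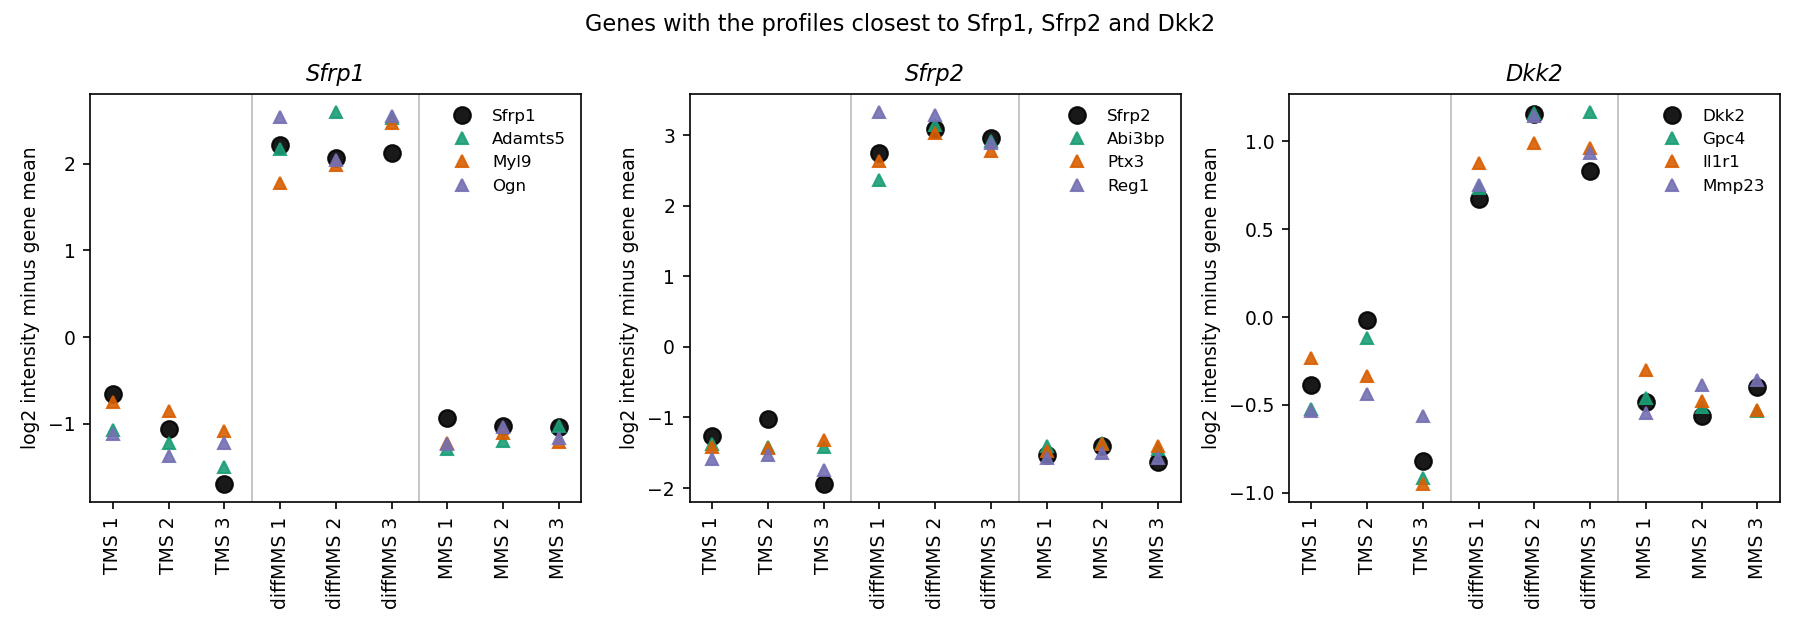
Log2 intensity minus the mean of the gene over 9 arrays for Sfrp1, Sfrp2 and Dkk2 (black circles) and the 3 genes with the smallest root mean square difference from each (triangles), in tumorspheres (TMS), mammospheres induced to differentiate (diffMMS) and mammospheres (MMS), replicates 1 to 3. All 12 genes lie above their mean in the differentiated cells and below it elsewhere. Among tumorspheres, Dkk2, Gpc4 and Mmp23 are each highest in replicate 2 and lowest in replicate 3, as are Sfrp2 and Reg1.

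The rest of the pathway moved in both directions with induced differentiation, where 18% of all genes were called higher and 16.1% lower. Of 10 further secreted or membrane antagonists, 3 rose with differentiation and 1 fell, with a median difference of 0.13 against 0.05 over all genes. Sfrp5, the remaining member of the Sfrp family, was higher by 0.51 (adjusted p = 0.00223 from limma) and Igfbp4, an IGF-binding protein that also restrains Wnt receptors, by 1.23 (adjusted p = 0.00126), and the third was Sost, by 0.26. The 1 that was lower was Apcdd1, a membrane glycoprotein that inhibits Wnt signaling, with a difference of -3.12 (adjusted p = 6.88e-10). The probe set that stood for Apcdd1 in every comparison was of the class whose probes may also match other transcripts. Of 16 intracellular negative regulators, 4 were higher and 3 lower, with Dact1, which acts on Dishevelled, at 1.43 and Nkd2, another Dishevelled binding inhibitor, at -0.54. Axin2, a scaffold of the β-catenin destruction complex that is also on the list of target genes, gave -0.38 (adjusted p = 0.0256).
Of 19 Wnt ligands, 6 rose with differentiation, among them Wnt5a by 0.79, and Wnt2 alone was lower, with a difference of -3.03 (adjusted p = 1.05e-06 from limma). Of 17 receptors and co-receptors 7 were higher and 3 lower, with Fzd2 at 1.48 and Fzd4 at 1.04 above mammospheres and Fzd7 at -0.49. Of 19 general target genes of the pathway 6 were higher and 8 lower. Ccn5 was higher by 1.73 and Ccn4 by 0.93, while Birc5, an inhibitor of apoptosis, gave -1.99 and Ccnd1, the cyclin D1 gene, -1.77.

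Between tumorspheres and mammospheres, 6.21% of all genes were called higher and 7.11% lower. Of the 10 further antagonists 2 were higher in tumorspheres, Shisa2 by 0.34 and Rnf43 by 0.23, and Apcdd1 was lower, with -0.39 (adjusted p = 0.0104 from limma). Shisa2 and Rnf43 were dim, with means above those of only 8.08% and 13.5% of all probe sets. Of 16 intracellular negative regulators only Tle1, a co-repressor of TCF/LEF factors, was called, 0.30 higher. Of 17 receptors 4 were higher and none lower, led by Fzd6 with 0.64 (adjusted p = 0.000594), 3 of 19 ligands were higher and 1 lower, and 3 of 19 target genes were higher and 1 lower. Between tumorspheres and the differentiated cells, Apcdd1 was 2.73 higher in tumorspheres and Igfbp4 differed by -1.67. In that comparison, 2 of the 10 further antagonists were called in each direction, where 12.3% of all genes were called higher and 12.7% lower.

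**Figure D4:**
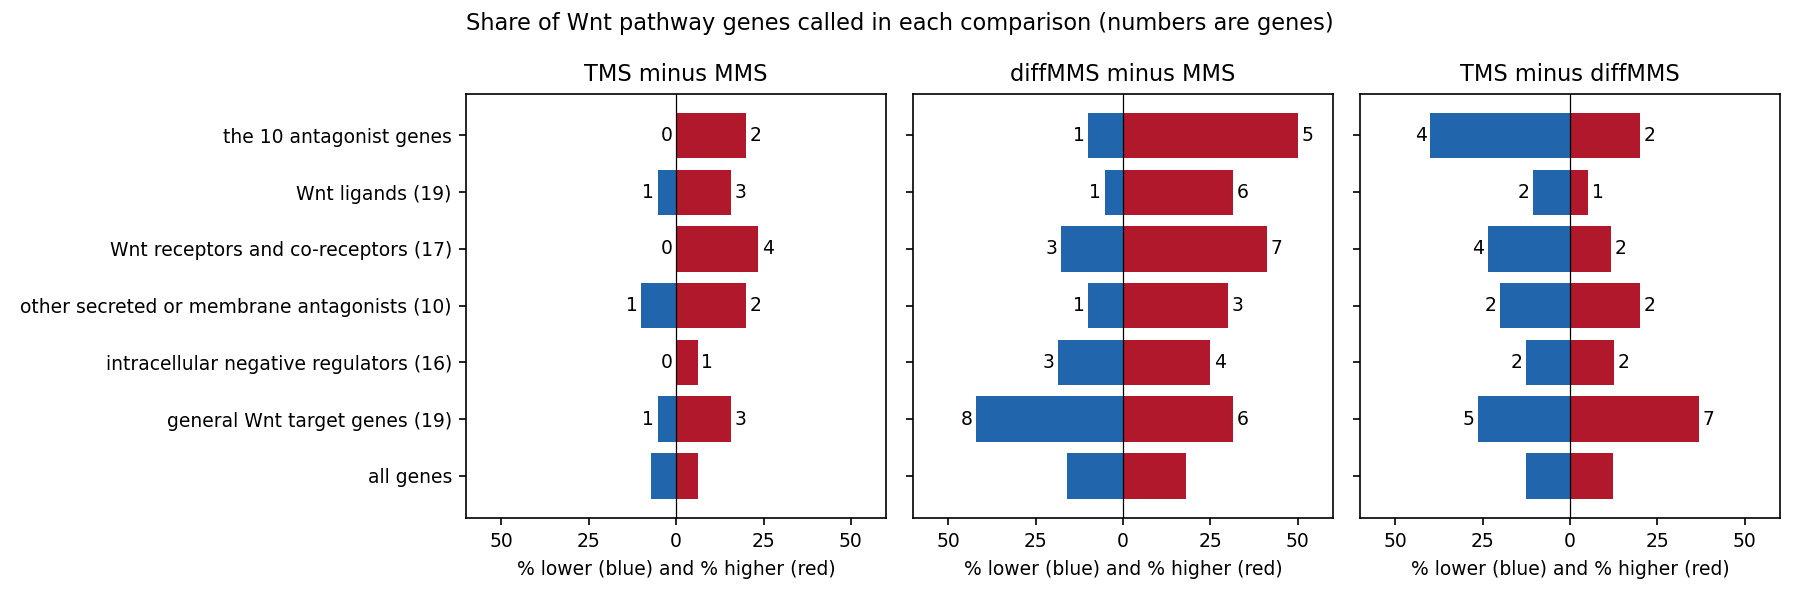
Share of genes called higher (red, to the right) and lower (blue, to the left) in each of the 3 comparisons, in percent of the genes measured, for the 10 antagonist genes, for 5 lists of other Wnt pathway genes with their size in brackets and for all 12393 genes, with the number of genes beside each bar. In the comparison of differentiated cells with mammospheres, 5 of the 10 antagonist genes are higher and 1 is lower.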

How the data were processed

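The labels and the paper describe 9 MOE430A arrays of total RNA, 3 each of tumorspheres, mammospheres induced to differentiate and mammospheres. The authors deposited 1 table of intensity values on a linear scale, already summarised per probe set and scaled between arrays. The paper names GeneSpring, and the summary method is not given in the sources used here. Of 22690 probe sets, 64 controls were left out. By the platform's own annotation 20380 of the rest carry 1 gene symbol, 691 several and 1555 none, and all 10 members matched RefSeq (GRCm38.p6) by gene identifier.

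Here 8.67, or 10% of the median intensity, was added before log2, and quantile normalization was applied since array quartiles lay up to 0.134 apart. A single limma model (version 3.58.1, R 4.3.3) covered all 9 arrays (lmFit, eBayes with an intensity trend, 6 residual degrees of freedom), with two-sided p values adjusted by Benjamini-Hochberg over all probe sets tested. Rank correlations between arrays of 1 group were 0.985 to 0.996. P values rest on a spread between preparations that the fit took as equal in all groups and moderated by intensity. All 3 comparisons of a probe set thus had the same standard error. For the brightest Sfrp1 probe set it was 0.188, with SDs of 0.52 in tumorspheres, 0.0776 in the differentiated cells and 0.0579 in mammospheres. Where groups differ so in spread, intervals can be too narrow for the wider group and too wide for the tighter ones. The number of 3 preparations per group limits the precision. The fit was tested on simulated data, and alternatives changed the scaling, the added constant, the variance model, the filter, the array weights, the arrays in the fit, the threshold and the probe set of a gene. A gene is represented by its probe set of the highest mean. All probe sets of the members are given, and from each list of other pathway genes at most the 2 largest called rises and falls in a comparison, with Sost, Krt8 and the cell type markers other than the label checks named after their values were seen. The members and lists were chosen with earlier results of these data known. Figures were drawn with matplotlib 3.10.9 in Python 3.11.15.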

Additional observations from a re-analysis of the deposited data

How the results depend on the processing

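The 11 member probe sets called between differentiated cells and mammospheres, and the 11 between tumorspheres and differentiated cells, stayed within 10 to 12 under every alternative run. The 3 called between tumorspheres and mammospheres became 1 with the values as deposited, with arrays centred on their median and with only the 2 groups in the fit, 0 at a threshold of 0.01 and 0 to 4 when 1 array was left out. Of 585 recomputed differences of single genes, 552 kept their direction and their side of the threshold, 15 lost a call, 5 gained one and 13 changed sign, none of these 13 called before or after. For tumorspheres against mammospheres the sign changed for Frzb with array weights (-0.036), for Wif1 with centred arrays (-0.001) and when an array was left out for Dkk2 (-0.12 to 0.28), Sfrp1 (-0.38 to 0.14) and Sfrp2 (-0.077 to 0.38). For tumorspheres against differentiated cells it changed for Sostdc1 with array weights (0.042), with its other probe set (0.046), with the mean of its probe sets (0.021) and when an array was left out (-0.096 to 0.082). For differentiated cells against mammospheres it changed for Wif1 with the values as deposited (0.003) and when an array was left out (-0.036 to 0.001). The cause was not tested. Without dim probe sets, Dkk1, Wif1, Sostdc1 and the second probe set of Frzb could not be fitted. An exact permutation test of 3 against 3 arrays cannot give a p below 0.1. No paired analysis was possible because the labels give the groups no shared replicate numbers.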
